A study of Mus musculus with 20 samples.

Results

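The weakest peaks in a genome-wide map of Pet-1 binding were described here. Pet-1, encoded by Fev, is a transcription factor of serotonin neurons, and the map came from chromatin immunoprecipitation (ChIP) of a Myc-tagged Pet-1 protein. The members were chosen by their peak score alone, as all peaks scored from 50 to 70, and this gave 1515 of 4934 peaks (30.7%). The peak scores are the authors' own, and no source used here gives their scale. Scores of the members ran from 50 to 69.98 with a median of 57.92, and the lowest score in the whole list was also 50, so the tier is the bottom of what was called. At the upper limit, the members upstream of Man1c1 and downstream of Tprkb scored 69.98, and the next peaks up, at Zfp110 and Rnf145, scored 70.02 and 70.03. Stronger peaks are given below in 3 tiers: 1382 peaks scored 70 to 100, 1363 scored 100 to 200 and 674 scored over 200.

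All mice were C57BL/6. Binding was measured in 1 ChIP sample with 1 input, without replicates. Per the labels' protocol, the chromatin came from fluorescent hindbrain tissue, dissected from the mid-hindbrain boundary as far as rhombomere 4, of embryos that lacked endogenous Pet-1 (Pet-1-/-) and carried the transgenes ePet-mycPet-1 and ePet-EYFP. It was precipitated with a goat antibody against Myc. The youngest embryos were E12.5. The labels conflict on this sample: its genotype field reads wild type, and the oldest embryos are E14.5 in one field and E15.5 in another. RNA was measured in sorted EYFP+ serotonin neurons, in 3 libraries each of wild type at E11.5, E15.5 and after birth (P1 to P3, postnatal), all amplified with the Clontech kit, and of E15.5 Pet-1-/- with the same kit. Another 3 wild-type and 3 Pet-1-/- libraries of E15.5 were amplified with the NuGEN kit. The transgenes are driven by ePet, an enhancer taken from the region upstream of Fev itself. Reads from transgene copies of that region and from the endogenous Fev upstream region therefore cannot be told apart, which touches the Fev peak below. In bulk RNA, fewer cells of a type and less RNA per cell cannot be told apart.

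Serotonin neurons of the hindbrain make serotonin from tryptophan, using tryptophan hydroxylase and its cofactor tetrahydrobiopterin, and clear it with a plasma membrane transporter. Pet-1 is an ETS family factor, a class that recognises DNA through a GGAA core and prefers a CCGGAA or longer ACCGGAAGT context. It acts with Gata2, Gata3, Lmx1b, Nkx2-2 and other factors in starting and keeping the serotonin programme, and the Fev gene is known to be under its own control.

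Sequences are shown for the peaks at Fev and Gchfr, whose promoter windows hold a GGAA core without the longer ETS motif, and for sites that do hold it. All are from RefSeq (GRCm38.p6), 5′ to 3′ in the direction of transcription, and lie upstream of the annotated gene span or are short sites of under 30 bases. In the first pair, capitals mark every GGAA or its complement TTCC.
Fev upstream, chr1:74885474-74885658, minus strand: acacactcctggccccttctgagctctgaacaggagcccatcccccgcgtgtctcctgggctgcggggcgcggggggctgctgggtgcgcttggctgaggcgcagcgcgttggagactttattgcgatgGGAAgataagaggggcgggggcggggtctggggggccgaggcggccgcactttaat
Gchfr upstream, chr2:119167538-119167787, plus strand: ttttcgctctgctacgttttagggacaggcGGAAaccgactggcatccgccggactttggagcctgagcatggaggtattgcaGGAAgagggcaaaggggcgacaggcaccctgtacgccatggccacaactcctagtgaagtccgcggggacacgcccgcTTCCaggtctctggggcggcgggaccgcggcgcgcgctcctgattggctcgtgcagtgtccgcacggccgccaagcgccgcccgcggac
The Fev stretch lies wholly inside its peak and holds 1 core, at -121 bp from the start. An AGATAA, the core of a GATA factor site, follows at -118 bp and overlaps the end of it. The Gchfr stretch also lies wholly inside its peak, with 3 cores. Both peaks reach upstream beyond the promoter window, the Fev peak to -1904 bp (centre at -960 bp) and the Gchfr peak to -600 bp. Those parts were not searched, so a longer ETS motif there would have been missed.

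Longer ETS motifs are shown where they lay closest to the centre of a member, at Edc4 and Ccdc97, and in 3 of the genes described below, Syt11, Cep164 and Vim. Capitals mark a single match per stretch, of ACCGGAAGT, CCGGAA or its complement TTCCGG. In Syt11 and Cep164 a TTCCGG overlaps the marked CCGGAA, and its first bases are in lower case.
Edc4, chr8:105880877-105880905, plus strand: ggtcagtgggACCGGAAGTggaggcggtt
Ccdc97, chr7:25719030-25719058, minus strand: cgcttgcgtaACCGGAAGTacctgcgggt
Syt11, chr3:88772606-88772631, minus strand: cgaagagcttCCGGAAtctttcgggc
Cep164, chr9:45828639-45828664, minus strand: cagtgcctttCCGGAAgtggttgctg
Vim, chr2:13574195-13574220, plus strand: cctcacttctTTCCGGgtccccattg
The motif lay 5 bp from the centre of the Edc4 peak and 6 bp from that of the Ccdc97 peak, close to the start of each gene (6 bp and -13 bp). In the Syt11 and Cep164 peaks it lay 271 and 158 bp from the centre. The Vim motif, at -106 bp from the start, fell at the very edge of its peak, 422 bp from the centre.

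Weak peaks were mostly promoter peaks, but less so than stronger ones. Not every gene has its start in the table used, which holds those of 17492 of 21900 RefSeq coding genes (79.9%) and none on chromosome 18, so the 35 members there were left out. The centre of 898 of 1480 members (60.7%, Wilson 95% interval 58.2 to 63.1) lay within 1 kb of a RefSeq gene start, against 68.8%, 68.1% and 72.9% in the tiers of rising score. With either end of a gene without a start counted as one, since the strand was not given, the share was 72.6% (70.2 to 74.8) for members and 79.9%, 78.5% and 81.8% for the stronger tiers. These intervals, like all intervals on shares here, cover counting error only, since there is 1 ChIP sample. Far from any start, by over 50 kb, lay 12.1% of members (10.5 to 13.9), against 6.26%, 8.21% and 4.99%, but 145 of these 179 members were in or within 50 kb of a gene whose start is missing from the table. Away from those genes as well, by the same distance, lay 2.3% of members (1.65 to 3.19), against 0.82%, 0.301% and 0.303%. The fall was also seen inside the tier: 66.2% (62.4 to 69.9) of the 614 members scored 60 or more and 56.8% (53.5 to 60.1) of the 901 below 60 lay within 1 kb of a start.

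**Figure D1:**
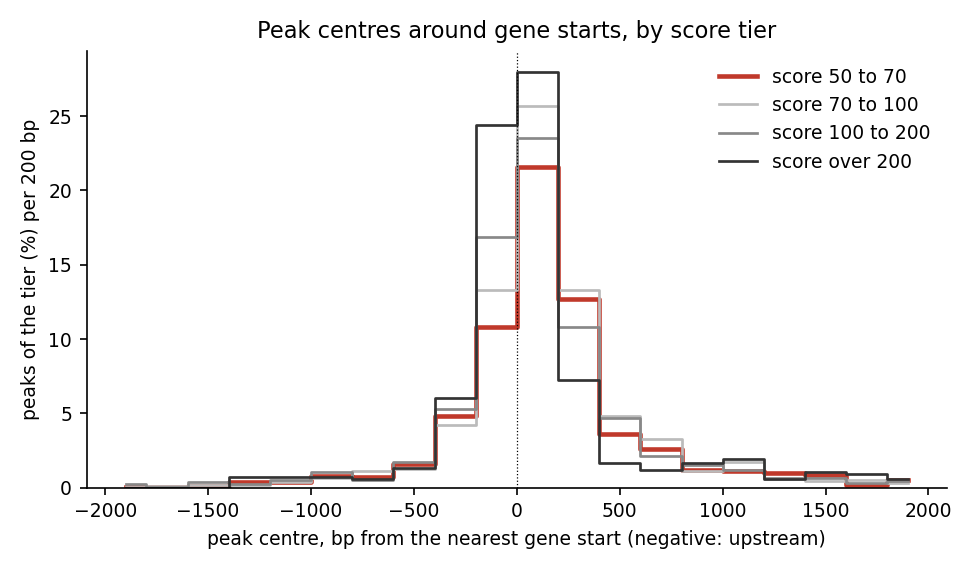
Share of each tier's peaks (y axis, percent per 200 bp) by the distance of the peak centre from the nearest gene start (x axis, bp, negative upstream). Weak peaks (red) have the lowest summit and, like the tier from 70 to 100, lean to the downstream side, with a median of 91 bp.

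Promoter members sat just inside the gene. Among members within 1 kb of a start, 31.1% (28.1 to 34.2) had their centre upstream of it, and the median position was 91 bp downstream. In the tier over 200 the upstream share was 45.4% (41 to 49.9) and the median was 16 bp. Peaks that served coding starts on both strands made up 6.55% of members (5.4 to 7.93) and 12.9% (10.5 to 15.6) of the tier over 200. Of the 432 members over 5 kb from a start, 70.6% lay in the span of a gene, about the same as in the stronger tiers (69.9% to 72.1%).

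Widths follow from the same reads as the score and are given as a description. The median member was 714 bp wide, against 838, 1021 and 1276 bp in the tiers of rising score. The narrowest, 355 bp, lay on chromosome 4. The widest, 2566 bp, had its centre at -425 bp from the start of Mesd. The Fev peak, at 1888 bp, ranked 5 by width among the 1515 members.

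Most weak peaks were not satellites of strong ones. A peak scored over 70 lay within 50 kb of 33.1% of members (30.7 to 35.5), a share of the same size as that for the tier from 70 to 100 (34.7%, 32.3 to 37.3). The median distance to a stronger peak was 114354 bp. Clusters existed all the same: 37 genes had 2 or more weak peaks within 5 kb of a start, and 5 of them had 3 or more. Chromosome X held 6 members (0.396%, 0.182 to 0.861), about the share in each stronger tier (0.593% to 0.66%) and below the 3.72% of starts in the table, and 4.41% of RefSeq coding genes, that lie there.

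The DNA under the weak promoter peaks carried the ETS motif more often than promoters without a peak, and less often than promoters in the middle tiers. No genome was used, so sequence was searched in the RefSeq promoter window (from 250 bases before to 50 after a start) nearest the centre of each peak that overlapped one, on both strands. CCGGAA was in 34.2% of 766 weak-peak windows (30.9 to 37.6). It was in 43%, 48.7% and 37.1% of windows of the tiers of rising score, in 11.2% of the 28826 windows with no peak and in 14.9% of all windows. The 9-base ACCGGAAGT, which contains CCGGAA, was in 3.52% (2.43 to 5.08) of weak-peak windows, against 8.04% (6.39 to 10.1) in the tier from 100 to 200, 0.51% of windows with no peak and 1.1% of all windows. Members were narrower than stronger peaks at the median, so the count was repeated in windows wholly inside a peak: CCGGAA was in 43.4% (38.9 to 48.1) of 435 such weak-peak windows, and in 51% (46.8 to 55.1), 54.5% (50.8 to 58.2) and 38.9% (34.5 to 43.4) of those of the tiers of rising score. The bare core GGAA does not separate the groups, at 94.6% of weak-peak windows and 96% of all windows.

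**Figure D2:**
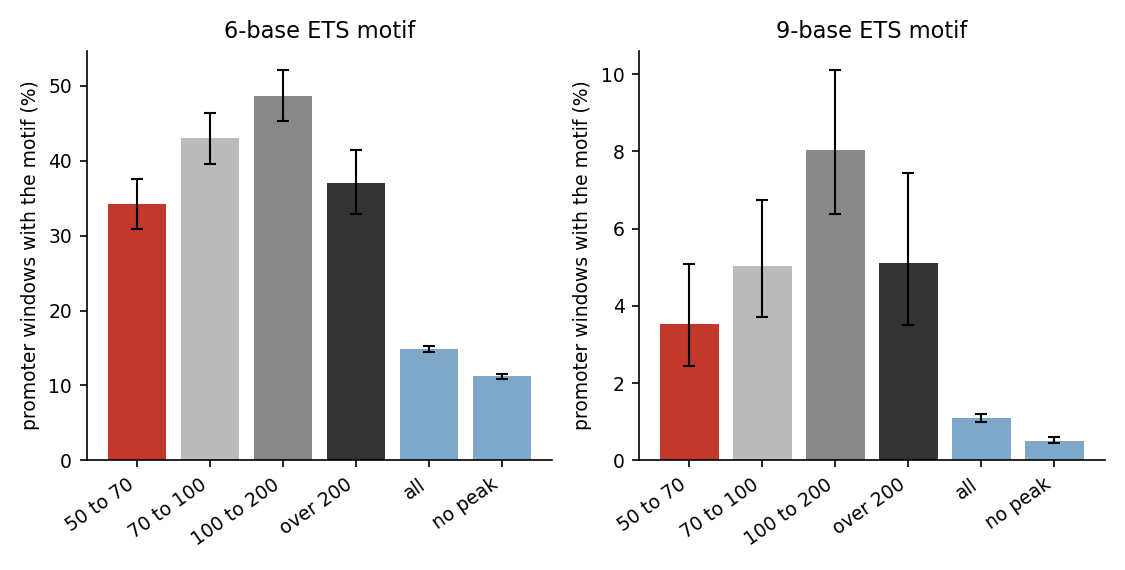
Share of promoter windows (y axis, percent) with CCGGAA (left) and ACCGGAAGT (right), for windows under peaks of each score tier, all windows and windows with no peak, with Wilson 95% intervals. Weak peaks (red) reach 34.2% and 3.52%, above windows with no peak and below the tier from 100 to 200.

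Weak-peak windows were rich in G and C, with a median of 63.3% against 51.3% in windows with no peak, so the motif shares were also read at matched base composition. At 50 to 60% GC, CCGGAA was in 41.7% of weak-peak windows (35.1 to 48.7) and 13.7% of windows with no peak. At 60 to 70% GC the shares were 34.9% and 21.8%, and at 70% or more 24.3% (18.5 to 31.2) and 17%. A floor of 1 FPKM at E15.5 was set separately, with neither base composition nor level above the floor matched. FPKM are fragments per kilobase of transcript, scaled also to the mapped fragments of the library. In windows of genes at or above that floor, CCGGAA was in 37.6% (33.7 to 41.7) under weak peaks and 21.3% (20.4 to 22.3) without a peak. The median GC of these windows was 62.7% and 60%.

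Where CCGGAA was present, it lay near the middle of weak peaks more often than GGGCGG or CCAAT did. The nearest copy was within 100 bp of the centre in 46.2% (40.2 to 52.2) of the 262 weak-peak windows that held it, against 53.9% (49.1 to 58.6) in the tier from 100 to 200. The same share was 32.5% (28.8 to 36.6) for GGGCGG, the GC box bound by Sp factors, and 30.5% (25.6 to 36) for the CCAAT box. Only promoter windows were searched, and the usual place of each motif relative to a start was not taken into account. Other motifs searched were mostly those of GC-rich promoters. GGGCGG was in 72.2% of weak-peak windows and 35.7% of all windows, and the YY1-type ATGGCGG in 10.6% and 4.05%. The homeodomain-type TAATTA was in 1.44% of weak-peak windows and 5.29% of all windows, AGATAA in 3.79% and 11.2%, and the E-box CANNTG in 61.7% and 72.3%. These matches are letters in a window and say nothing about which factor was bound.

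Gene starts within 1 kb of a weak peak belonged to 1083 genes, of which 946 were protein-coding and 137 were long noncoding. Only 50 of them also had a stronger peak within 1 kb. Most were active in serotonin neurons: of the 961 in the expression tables, 75.7% to 82.3% had 1 FPKM or more in each of the 9 wild-type stage libraries, 576 did so in all 9, and 65 did so in none. The median level of weak-peak genes was 5.21 to 6.42 FPKM per library. Of all 22265 matched genes, 42.8% to 50.2% had 1 FPKM or more per library, with medians of 0.119 to 1.02 FPKM. Genes with a stronger peak within 1 kb gave 79.7% to 85.6% and medians of 6.42 to 8.3 FPKM. In each library the weak-peak share lay above that of all genes and below that of genes with a stronger peak. The sorted cells carried the serotonin markers in each library, with Tph2, the brain tryptophan hydroxylase, at 51 to 305 FPKM and Slc6a4, the serotonin transporter, at 23.4 to 161 FPKM.

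Fev itself had a single member and no stronger peak within 5 kb (nearest at 69377 bp). The peak lay at chr1:74885425-74887312, was scored 59.91 and reached from -1904 to -17 bp of the Fev start, with its centre at -960 bp. It therefore covers upstream DNA that the ePet transgenes may also carry, and their part in the signal was not tested. Fev measured 393, 226 and 180 FPKM in the E11.5 libraries, 55.9, 34.6 and 15 at E15.5, and 101, 81.9 and 34.6 after birth. All E11.5 libraries were above all later ones. The fall from E11.5 to E15.5 was 2.99 in size on the log2(FPKM + 1) scale (-2.99 ± 0.49 SE, limma adjusted p = 0.00104). From E11.5 to the postnatal stage the change was -1.92 ± 0.49 (limma adjusted p = 0.0117), and without postnatal library c it was -1.46 and no longer called. The call from E11.5 to the postnatal stage was also lost with no filter on low values.

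Fev served as the check of the knockout in the authors' deposited tables. It fell from 31.1 to 0.422 FPKM with the Clontech kit (log2 -6.20, q = 0.00391) and from 34.9 to 0.308 FPKM with the NuGEN kit (log2 -6.82, q = 0.00206). These are group values over 3 libraries, with no value per library for knockout or NuGEN samples, so their spread cannot be given. The E15.5 stage libraries, taken as the Clontech wild type, had Fev at 55.9, 34.6 and 15 FPKM.

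Gchfr encodes the feedback regulator of GTP cyclohydrolase, the enzyme that starts tetrahydrobiopterin synthesis. It had 2 members and no stronger peak within 5 kb. The first, at chr2:119167188-119167907, scored 69.92, close to the upper limit of the tier, and spanned the start from -600 to 119 bp. The second, at chr2:119171636-119172235, scored 55.23 and lay in the gene, 4147 bp downstream of its start. The start of Gm14137 was closer to this second peak, whose centre lay at -2574 bp from it. Gchfr was one of the most abundant of these transcripts, at 2130, 1020 and 1340 FPKM at E11.5, 1110, 735 and 473 at E15.5 and 1160, 1340 and 554 after birth. The stages overlapped, and no interval passed the test (limma adjusted p from 0.0844 to 0.522), except that the change from E11.5 to E15.5 was called with upper quartile scaling (log2 -1.16). In the authors' deposited tables it fell from 769 to 143 FPKM (log2 -2.42, q = 0.00391, Clontech) and from 781 to 182 FPKM (log2 -2.10, q = 0.00206, NuGEN).

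Gchfr was the only gene of the synthesis, transport and breakdown list with a weak peak within 5 kb, out of 15 with a start in the table, and 2 others (Pcbd2 and Slc29a4) had a stronger one. Tph2, Slc6a4, Slc18a2 and Ddc had no peak of any tier in that range. Among 13 transcription factors of serotonin neurons, 4 had a weak peak (Fev, Gata2, Nkx2-2 and Nkx6-1) and 12 a stronger one, which leaves Fev as the one with a weak peak alone. Gata2, a zinc finger factor that acts before Fev, had a member at chr6:88198400-88199081 (score 66.43), 76 bp from a start, beside stronger peaks scored 82.46, 195.45 and 296.83. Its FPKM were 173, 143 and 89.2 at E11.5, 44.5, 38.8 and 20.3 at E15.5, and 15.6, 10.7 and 13.2 after birth. No 2 stages overlapped, and the fall from E11.5 to the postnatal stage passed the test (log2 -3.23 ± 0.35, limma adjusted p = 3.92e-05). The knockout change of Gata2 in the authors' deposited tables was log2 -0.13 (q = 0.825, Clontech) and 0.00 (q = 0.998, NuGEN).

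Nkx2-2, a homeodomain factor of the ventral hindbrain, had weak peaks on either side of a peak scored 129.19. Its members scored 56.86, at 2260 bp, and 62, at -1822 bp, although starts of noncoding genes lay closer to each. In the authors' deposited tables Nkx2-2 rose in the knockout with the NuGEN kit, from 8.35 to 18 FPKM (log2 1.11, q = 0.00206), and gave log2 0.80 (q = 0.194) with Clontech. It fell with age (log2 -2.37 ± 0.38, limma adjusted p = 0.000629), from 22.4 to 33 FPKM at E11.5 down to 2.65 to 6.23 after birth. Nkx6-1, with a member scored 69.65 at 2679 bp beside a peak scored 206.66, stayed under 1 FPKM in all 9 libraries.

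Of 11 serotonin receptors with a start in the table, only Htr1b, the autoreceptor of axon terminals, had a weak peak within 5 kb. Its peak scored 58.07, 1359 bp from the Htr1b start, and the start of the noncoding D430036J16Rik was closer. The FPKM of Htr1b were at or under 0.524 in 8 of the 9 libraries and 1.99 in the other. None of 16 listed receptors for inputs to serotonin neurons and none of 20 listed GABA, glycine and glutamate receptors had a peak of any tier in that range. In the ETS family, Etv6 had a weak peak besides Fev (score 50.49), at -467 bp, and was under 1 FPKM in both groups of both kits.

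Excitability and release genes had a few members. Of 22 ion channels, 3 had a weak peak: Scn8a, a sodium channel (score 56.28), Kcnd3, an A-type potassium channel, with 2 (55.89 and 57.79), and Kcnk1, a leak potassium channel (56.86). Of 23 genes for synaptic vesicles and release, these were Rab3a, a vesicle GTPase (51.49), and Syt11, a synaptotagmin (56.26). Of 18 genes for axon growth, they were Crmp1 (52.23) and Nrp1, a semaphorin receptor (69.04). Crmp1 alone of these genes also had a stronger peak within 5 kb. None of these 7 genes was called in the authors' deposited knockout tables in either kit, where 2.82% (Clontech) and 12.7% (NuGEN) of all genes tested were called in one direction or the other.

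The lists of other cell types held few members. Vim, an intermediate filament of radial glia, was the only one of 7 astrocyte and radial glia markers with a start in the table, and none of 7 microglia and blood or 5 vascular markers had a weak peak. Among 12 markers of other transmitters, 3 had one: Gad1 (score 59.06), Slc32a1 (51.33) and Slc17a6 (56.7), which mark GABA, GABA or glycine, and glutamate neurons. Each of them also had a stronger peak within 5 kb. Slc32a1 stayed under 1 FPKM in all 9 libraries, and Gad1 rose from at most 0.00845 FPKM at E11.5 to 6.35, 4.01 and 7.81 after birth (log2 2.78 ± 0.36, limma adjusted p = 0.000132).

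Loss of Pet-1 changed few weak-peak genes, in shares close to or under those of all genes. Calls needed q under 0.05 and a 1.5-fold change in the authors' deposited tables, and 1 FPKM in a group. With the Clontech kit 10 of 803 weak-peak genes were lower (1.25%, 0.678 to 2.28), against 1.85% of all genes, and 8 were higher (0.996%), against 0.969%. With the NuGEN kit 27 of 807 were lower (3.35%, 2.31 to 4.82), against 4.56%, and 54 were higher (6.69%, 5.16 to 8.63), against 8.19%. The median log2 change of weak-peak genes was 0.00 and 0.10, beside -0.02 and 0.09 for all genes. With and without CCGGAA in the window the shares overlapped within counting error: of weak-peak genes with it, 0.897% were lower with Clontech (0.246 to 3.21) and 2.75% with NuGEN (1.27 to 5.87), against 1.36% (0.58 to 3.13) and 4.26% (2.64 to 6.8) of those without. Fev, the gene deleted, and Gchfr are in the lower counts of both kits and in the group without CCGGAA. Their calls were known when the tier was chosen. With Clontech, lower genes numbered only 2 of 223 with CCGGAA and 5 of 369 without, so the order of these shares rests on few genes.

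**Figure D3:**
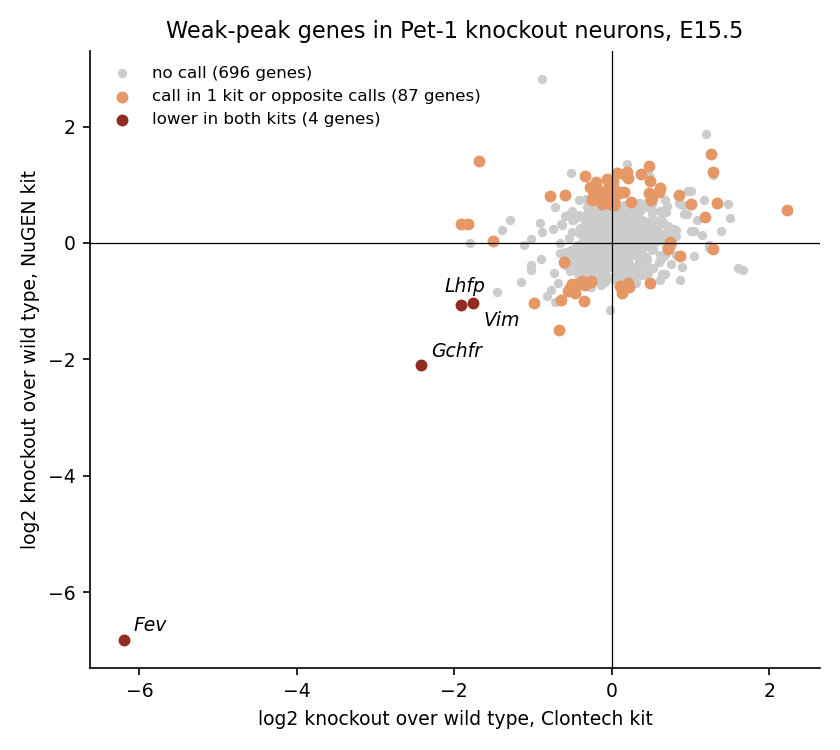
Each point is a weak-peak gene tested in both kits, at its log2 change in Pet-1 knockout over wild-type neurons with the Clontech kit (x axis) and the NuGEN kit (y axis), from the authors' deposited tables. Fev, Gchfr, Lhfp and Vim (dark red) are the 4 genes lower in both.

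Both kits called 4 of 787 weak-peak genes lower (0.508%, 0.198 to 1.3), against 0.571% of all genes, and these were Fev, Gchfr, Vim and Lhfp. They called none higher, against 0.362% of all genes. At an unadjusted p under 0.05 in the authors' deposited tables and 1.5-fold, 10 of the 787 weak-peak genes were higher in both kits (1.27%, 0.692 to 2.32), against 196 of 10501 genes in all (1.87%). The 4 genes had no stronger peak within 5 kb. Fev is the gene deleted in the knockout, and the calls of Fev and Gchfr were known when the tier was chosen. Without this pair, 2 of 785 weak-peak genes were lower in both kits (0.255%, 0.0699 to 0.924). Genes with a stronger peak at the start gave 4 of 2169 (0.184%, 0.0717 to 0.473), and genes with a start in the table and no peak gave 39 of 5463 (0.714%, 0.523 to 0.974).

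Vim had its member at chr2:13574203-13575051 (score 57.35), 316 bp from the start. In the authors' deposited tables it fell from 64.2 to 18.9 FPKM (log2 -1.76, q = 0.00391, Clontech) and from 38.7 to 18.8 FPKM (log2 -1.04, q = 0.00206, NuGEN). Slc1a3, a glutamate transporter of astrocytes and radial glia, was likewise lower in both (log2 -2.89, q = 0.00391, Clontech, and log2 -0.89, q = 0.0231, NuGEN). Over the whole marker list, 6 of the 8 tested astrocyte and radial glia markers, Vim and Slc1a3 included, were lower with Clontech and none was higher, while with NuGEN this pair was lower and 1 was higher. Their summed level went from 1450 to 510 FPKM with Clontech and from 206 to 335 FPKM with NuGEN. Fabp7, a radial glia marker, fell with Clontech (log2 -1.49, q = 0.00391) and rose with NuGEN (log2 1.07, q = 0.00206). The part of these cells in the Vim result was not tested.

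Lhfp, a tetraspan membrane protein gene, had a member near the lower limit, at chr3:53041294-53041898 (score 50.2), 49 bp from the start. In the authors' deposited tables it fell from 6.11 to 1.63 FPKM (log2 -1.91, q = 0.00992, Clontech) and from 6.08 to 2.92 FPKM (log2 -1.06, q = 0.0099, NuGEN). Another 2 weak-peak genes, named after their values were seen, were called in opposite directions (2 of 787, 0.254%, against 9 of 10501 genes in all, 0.0857%): Id3, an inhibitor of basic helix-loop-helix factors, and Cd63, a tetraspanin. Id3 went in the authors' deposited tables from 98 to 30.6 FPKM with Clontech and from 10.7 to 28.2 FPKM with NuGEN, and Cd63 from 217 to 125 and from 64.5 to 113 FPKM. Fabp7, of the glial list above, went the same ways, and its cells' part in these changes was not tested.

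Genes called in 1 kit alone were led by other functions. With Clontech, the largest changes in the authors' deposited tables were a rise of B3gnt7, a glycosyltransferase (log2 2.22, q = 0.0483), and falls of Fhl4 (log2 -1.92, q = 0.0471), Fgfbp3, a carrier of fibroblast growth factors (log2 -1.82, q = 0.0303), and Sertad3 (log2 -1.51, q = 0.0237). Stk40, a kinase-family gene, rose (log2 1.33, q = 0.0446). The NuGEN kit gave log2 0.56, 0.33, 0.33, 0.03 and 0.68 for these 5 genes. In the wild-type E15.5 stage libraries Fhl4 measured 5.31, 0.869 and 0.984 FPKM, and its Clontech knockout group 0.652 FPKM. Sertad3 measured 27.7, 6.59 and 4.43 FPKM, and its knockout group 4.31 FPKM, so for both genes library a stood far above the others. Fgfbp3 measured 8.02, 5.46 and 5.73 FPKM, and its knockout group 1.8 FPKM. With NuGEN, Begain, a postsynaptic protein gene, rose (log2 1.52, q = 0.00206), as did Gm2694 (1.32), 1190007I07Rik (1.21) and Cep164, a centriole gene (1.21). Clontech gave log2 1.26 (q = 0.0758), 0.47, 0.19 and 1.28 (q = 0.185) for these 4 genes. Cntn1, a neuronal adhesion gene, fell in the same kit (log2 -1.50, q = 0.00206), and Clontech gave -0.67 (q = 0.0507).

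Across wild-type stages, a smaller share of weak-peak genes than of all genes was called higher with age, and the difference itself was not tested. Calls were adjusted p under 0.05 in limma and 1.5-fold, over genes with 1 FPKM in 3 libraries. From E11.5 to the postnatal stage 90 of 827 weak-peak genes were higher (10.9%), against 17.4% of all genes, and 91 were lower (11%), against 10.1%. Genes with a stronger peak gave 9.64% higher, and genes with a start in the table and no peak 20.2%. Scaling to the upper quartile gave 80 higher and 107 lower weak-peak genes in this interval, and median centring 74 and 107. The counts were 58 higher without postnatal library b, 58 lower without E11.5 library a and 57 lower without postnatal library c. From E11.5 to E15.5, 113 weak-peak genes were higher (13.7%), against 17.4% of all genes, and 217 were called in either direction (26.2%), against 28.9%. The lower calls there were 104 of 827 (12.6%), a slightly larger share than the 1346 of 11738 in all genes. From E15.5 to the postnatal stage, 66 were higher (7.98%), against 10.6%, and 71 were lower (8.59%), against 9.56%. Scaling each library to the same upper quartile moved the median of all genes from 0.11 to -0.02 for E11.5 to E15.5, and the share of higher calls there from 52.1% to 39.5%. The counts from E15.5 onwards also rested on few libraries: without postnatal library a they were 24 higher and 30 lower, without postnatal library b 37 and 39, and without E15.5 library a 33 and 34. Leaving out E15.5 library b or c gave 43 and 46 lower, and 36 higher without c. Each E15.5 library also carried calls from E11.5 to E15.5, with 70, 74 and 72 higher when a, b or c was left out.

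**Figure D4:**
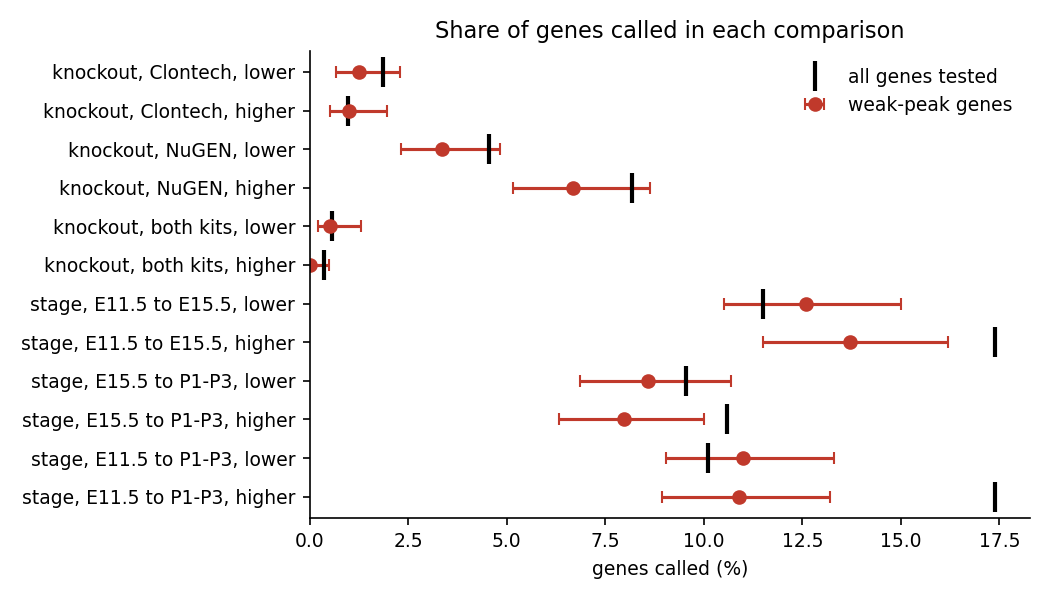
Percent of genes called (x axis) in each comparison and direction (y axis), for weak-peak genes (red, Wilson 95% interval) and all genes tested (black bar). The red points lie left of the bars, except for lower calls from E11.5 to E15.5 and from E11.5 to P1-P3 and higher calls with Clontech, and farthest left for genes higher from E11.5 to P1-P3 (10.9% against 17.4%).

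Neuronal genes were among the largest rises of weak-peak genes from E11.5 to the postnatal stage. Sncb, which encodes beta-synuclein of nerve terminals, had a member scored 69.1 at 520 bp and measured 2.63, 0.221 and 0.299 FPKM at E11.5, 22.3, 17 and 8.57 at E15.5, and 113, 106 and 70.6 after birth. No 2 stages overlapped, and the log2 change from E11.5 was 5.73 ± 0.47 (limma adjusted p = 4.66e-06). Pianp (log2 4.02), Rac3, a small GTPase (4.00), Dpp10, a partner of A-type potassium channels (3.84), Tmem130 (3.79), Cntn1 (3.67), Kcnk1 (3.44) and Khdrbs2, a splicing regulator (3.28), followed, with limma adjusted p from 3.67e-07 to 0.00246. Rac3 and Khdrbs2 varied within a stage, with E11.5 libraries from 0.352 to 20.8 FPKM and from 0.0662 to 10.8 FPKM. Tmem130 had its whole rise before E15.5, from 17.9 to 20.9 FPKM up to 264 to 305 FPKM, and Khdrbs2 too rose before E15.5 (log2 3.56) and gave -0.28 from then on.

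**Figure D5:**
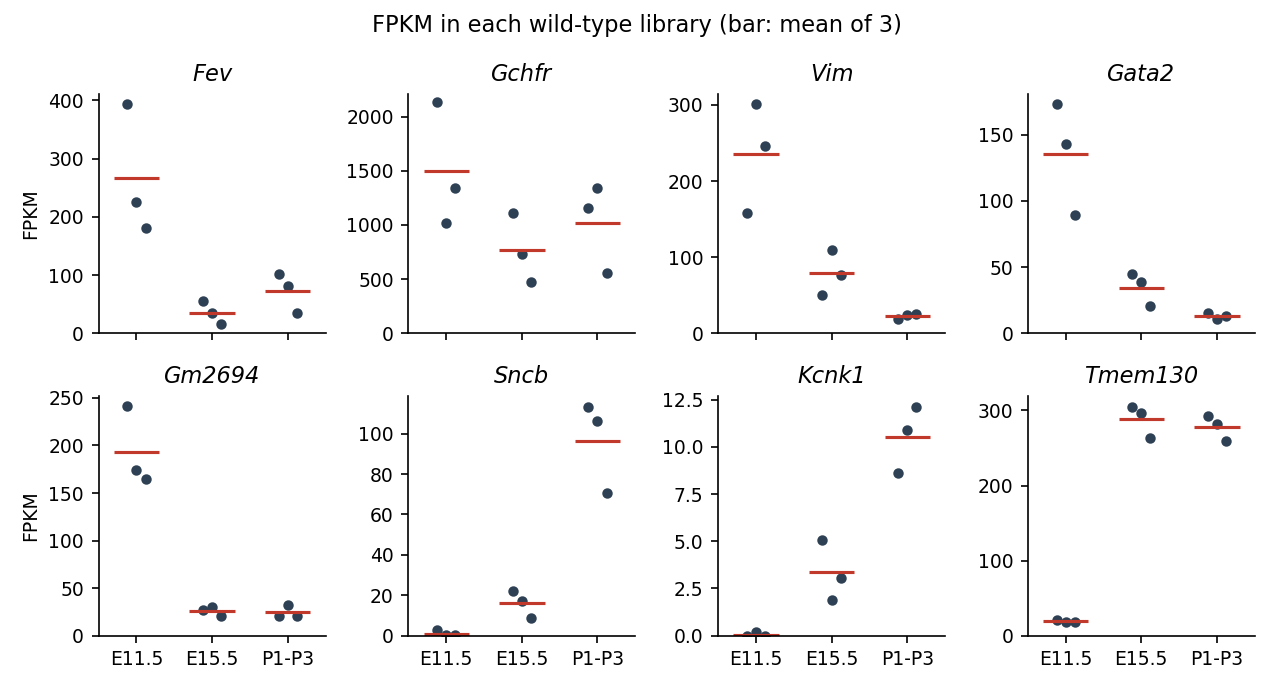
FPKM (y axis, from 0) of 8 weak-peak genes in each wild-type library at E11.5, E15.5 and P1-P3 (x axis), with red bars for the mean of 3. Fev, Vim, Gata2 and Gm2694 are highest at E11.5, Sncb and Kcnk1 after birth, and Tmem130 from E15.5 on, while Gchfr overlaps between stages.

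The largest falls were in genes of several kinds. Golm1, a Golgi membrane protein gene, measured 57, 62.1 and 35.5 FPKM at E11.5 and 0.492, 2.52 and 3.58 after birth (log2 -4.15 ± 0.56, limma adjusted p = 0.000191). Fignl2, with members scored 61.82 and 50.01, went from 34.7, 14.2 and 4.64 FPKM at E11.5 to under 1 FPKM by E15.5 (log2 -3.65 to the postnatal stage). It passed the filter on low values through the E11.5 libraries alone, and was no longer tested when any of these was left out. Irx2, an Iroquois homeodomain factor, had 3 members, scored 68.67, 51.27 and 55.01, and fell by 3.11 on the log2 scale. Sertad3 fell by 3.39, Vim by 3.30, Gata2 by 3.23, Tmem131l by 3.13 and Gm2694 changed by -2.94, with limma adjusted p from 1.79e-05 to 0.000786 over these and Irx2. Irx2, Gata2 and Tmem131l also had a stronger peak within 5 kb. Vim was at 158, 301 and 246 FPKM at E11.5 and 18.7, 23.5 and 24.7 after birth, with no overlap between stages.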

How the data were processed

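The authors deposited mm10 peaks, each with a score and, per the file headers, a MACS name, and the submitters' processing notes list MACS 1.4.2, BWA, TopHat2 and Cufflinks. Depth is unknown. The authors deposited FPKM of genes, by library for the stage series and by group in each knockout table. The deposited knockout tables also hold log2 fold changes and a p-value and q-value per gene, used as they stand. How the authors normalised FPKM, and the aligner settings, are not given in the sources used here.

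Members, gene lists and tests were chosen with earlier results of these data known. Peak centres were set against RefSeq starts of GRCm38.p6, and 22265 of 22556 gene names matched. Motifs were searched in promoter windows in place of planned windows around peak centres. Shares carry Wilson 95% intervals, with no test. Stages were tested with limma 3.58.1 (R 4.3.3) on log2(FPKM + 1) with a trend, in 1 fit of 9 libraries, with Benjamini-Hochberg adjustment over all genes. The script was tested on simulated data. FPKM summed to 630091 to 919994 per library, 17 genes with failed estimates were left out, and 3 matrix columns that match no sample were left aside. No kit is named for the E15.5 columns, which were closest to the Clontech wild type (median absolute log2 ratio 0.095, against 0.473 for NuGEN wild type). These libraries enter both the stage and the Clontech knockout comparisons. Libraries are lettered in column order, and nothing says that they came from separate animals, so p-values measure only the spread between these samples. Named genes were those with peaks in the rule or the lists, the genes called in both kits, up to 5 per kit called in 1, and the 8 largest rises and falls to the postnatal stage.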

Additional observations from a re-analysis of the deposited data

How the results depend on the processing

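With members limited to scores of 60 to 70, 614 peaks were left, 66.2% lay within 1 kb of a start, and the counts of called knockout genes were 4 lower and 5 higher (Clontech) and 11 lower and 29 higher (NuGEN). At 2-fold the Clontech count of higher genes was 5, and NuGEN counts were 7 lower and 15 higher. Starts within 0.5 kb gave 52.7%, within 5 kb 70.8% and overlapping the peak 47.1%. With either end of a gene without a start in the table counted as one, chosen after seeing the data, it was 72.6%. A stronger peak lay within 10 kb of 15.3% and within 100 kb of 47.3% of members. The motif share was 15.9% in the central 150 bases of the window, 94.6% for GGAA and 3.52% for ACCGGAAGT. In windows wholly inside a peak, an alternative chosen after seeing the data, it was 43.4%. Windows around peak centres of 600 bases and whole peaks were not run.

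Leaving out 1 library at a time gave 65 to 103 lower and 70 to 123 higher genes from E11.5 to E15.5 (70, 74 and 72 higher without E15.5 library a, b or c, and 65 lower without c). From E15.5 to the postnatal stage it gave 30 to 89 lower and 24 to 81 higher. Without E15.5 a, b or c the lower counts were 34, 43 and 46, and without postnatal a or b 30 and 39. The higher counts were 33 and 36 without E15.5 a or c and 24 and 37 without postnatal a or b. From E11.5 to the postnatal stage it gave 57 to 86 lower and 58 to 91 higher, with 58 lower without E11.5 a, 57 lower without postnatal c and 58 higher without postnatal b. Fignl2 could not be tested without any one E11.5 library. Fewer libraries enter each of these fits. Of the stage changes of named genes, 347 of the recomputed values kept direction and call, 10 kept direction and lost the call, among Fev, Begain and 1190007I07Rik, and none of the called values reversed. Values that were not called gained a call in 6 cases, among Fgfbp3, Kcnd3, Stk40 and Gchfr. No paired analysis was possible because the columns carry no replicate number.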

Other observations

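Gene families, chosen after the values were seen and matched by symbol, took weak peaks in different shares. Of all 27025 genes with a start in the table, 4.01% had a weak peak within 1 kb and 10.6% a stronger one. The zinc finger genes named Zfp had a weak peak in 24 of 336 cases (7.14%, Wilson 95% interval 4.85 to 10.4), among them Zfp263, and a stronger one in 21.1%. Genes of the cytosolic ribosome had a weak peak in 3 of 61 cases (4.92%), Rpl37a, Rpl6 and Rps10, and a stronger one in 62.3%. Potassium channel genes had a weak peak in 7 of 72 cases (9.72%, 4.79 to 18.7) and a stronger one in only 2 (2.78%). However, 2 of the 7 are noncoding genes named for a channel, Kcnd3os and Kcnmb4os2, and Kcnd3os shares a peak with Kcnd3. Genes of mitochondrial complex I and its assembly (Nduf) had a weak peak in 6 of 42 (14.3%, 6.72 to 27.8) and a stronger one in 35.7%, and proteasome genes in 5 of 33 (15.2%, 6.65 to 30.9) and a stronger one in 24.2%, including Psmc2, whose peak held an ACCGGAAGT 29 bp from its centre. Hox genes had a weak peak in 4 of 22 cases (18.2%, 7.31 to 38.5) and a stronger one in 45.5%. Of 944 olfactory receptor genes 1 had a weak peak (Olfr94) and none a stronger one.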
